A study of Homo sapiens with 9 samples.

Results

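The genes described here build, modify and cut heparan sulfate, a sulfated sugar chain of the cell surface and extracellular matrix. They are 32 genes listed by name and ordered by the step they are listed under. All 32 were measured, out of 927 named genes and 1259 probe sets on the array. A probe set was given its gene through its RefSeq identifier, and a gene with several probe sets was read from the one with the highest mean over all arrays. In this list, XYLT1 alone has a second probe set, so 33 probe sets stand for the 32 genes.

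The study measured glycosylation-related transcripts in 2 human colon carcinoma cell lines on 9 single-colour Affymetrix-type arrays, in 3 groups of 3. The treated group is T84 exposed for 24 hours to interferon gamma at 100 U/ml, a cytokine of activated lymphocytes; no passage or confluence is stated for it. Untreated T84 cells (passage 68) and untreated Caco-2 cells (passage 37) were harvested from 6-well plates at about 90% confluence, and neither line carries a stated genetic change. Replicates are numbered without a statement of separate cultures, so all p-values measure only how far these samples differ among themselves, and part of that spread may be technical. Each line was sampled at 1 stated passage, and a difference between T84 and Caco-2 cannot be told apart from a difference in passage.

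Heparan sulfate starts on a serine of a core protein, where xylosyltransferases, galactosyltransferases and a glucuronosyltransferase assemble a short linker that chondroitin sulfate shares. EXT1 and EXT2 then lengthen the chain, and NDST enzymes replace acetyl groups by sulfate along stretches of it. GLCE epimerises glucuronic to iduronic acid, and the HS2ST, HS6ST and HS3ST enzymes add sulfate at other positions. The resulting pattern decides which growth factors, chemokines and matrix proteins the chain can hold. Outside the cell, SULF enzymes remove 6-O-sulfate and heparanase cuts the chain; in the intestine the chains are known for their part in the epithelial barrier and the mucosal matrix.

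All values are log2 signals as the authors deposited them; a difference of 1 is a doubling. Differences are given with the standard error (SE) of a limma fit over all 9 arrays, a fold with its 95% confidence interval, and p-values are Benjamini-Hochberg adjusted over all 1259 probe sets, with a threshold of 0.05. Levels of different genes are not compared with each other, because probe sets bind with unequal strength. The 5 interferon-responsive genes checked, CXCL9, CXCL10, CXCL11, CD74 and ICAM1, rose by 3.17 to 6.12 on the log2 scale in treated T84. Of 12 intestinal epithelial markers 3 were measured (LGALS4, MUC13 and MUC2), with mean log2 signals between 10.66 and 10.71 on the T84 arrays and between 7.71 and 7.88 on the Caco-2 arrays; LGALS4 averaged 6.91 in Caco-2. After interferon gamma LGALS4 fell by 0.53 (limma adjusted p = 0.000241) and MUC13 rose by 0.40 (adjusted p = 0.0104), in opposite directions within that mean. Of 16 leukocyte markers 6 were measured, at mean log2 signals between 5.37 and 5.58 over all arrays, and 1 of them, CD22, was higher in both T84 groups than in Caco-2. Of 10 fibroblast markers 6 were measured, at 4.99 to 5.05 in T84 and 5.43 to 5.76 in Caco-2, and 4 of these 6 were lower in both T84 groups. Of 9 endothelial markers 4 were measured, at 5.42 to 5.51 in T84 and 5.59 to 5.62 in Caco-2, and 1 of them, PECAM1, was lower in both T84 groups. No measured leukocyte, fibroblast or endothelial marker passed the threshold between treated and untreated T84 in limma (0 with an unadjusted p below 0.05), and a part of these cell types in the results was not tested.

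The first component of the deviations from the group means held 70.9% of the within-group variance. The arrays lowest on it in their groups were replicate 1 of Caco-2 and replicates 3 of treated and of untreated T84. They are called the 3 deviating arrays below. Deviations cancel out within each group, so every group had to hold an array on that side, and the shared direction is no result. The scores of the component on these 3 arrays were, in that order, -0.68, -0.18 and -0.40. Treated T84 replicate 3 did not stand apart from its group, because treated replicate 1 lay about as far on the other side (0.17). HS2ST1, EXTL2 and HS6ST2 were among the genes that deviated with these arrays. On Caco-2 replicate 1 the log2 signal lay below the mean of the other 2 Caco-2 arrays by the following differences: EXTL2 fell by 1.68, HS2ST1 fell by 1.65, HS6ST2 fell by 1.52 and GLCE fell by 0.53. NDST1 and XYLT2 lay above the other Caco-2 arrays there, by 0.37 and 0.38. Values of these genes without the 3 arrays stand beside the results they bear on. The arrays were picked by these same values, and leaving them out narrows the spread of genes that follow the component. Smaller p-values without them therefore add no separate support.

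**Figure D1:**
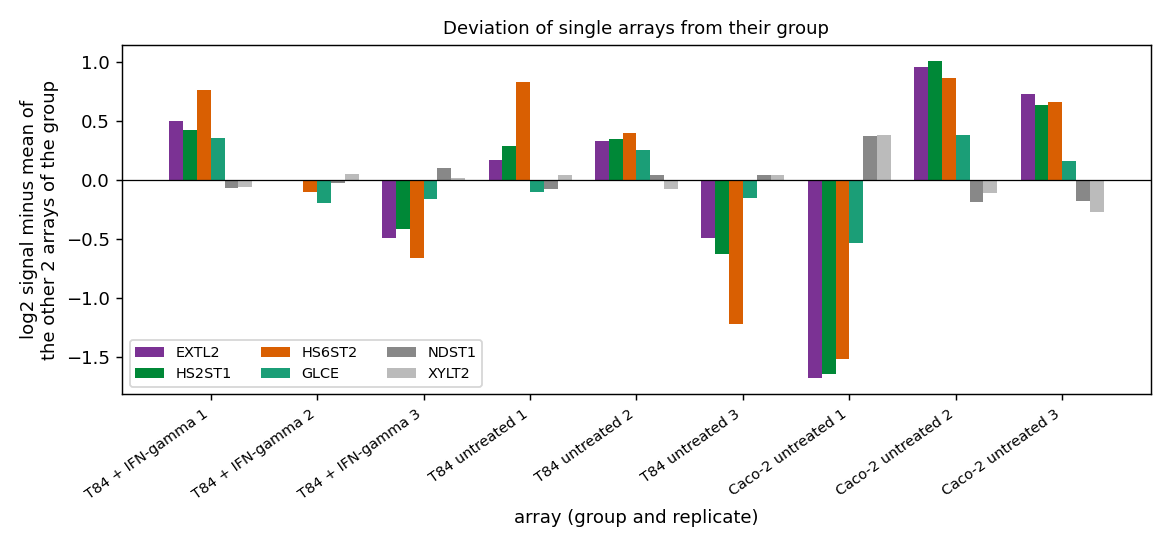
Each bar is the log2 signal of a gene on 1 array minus the mean of the other 2 arrays of its group (y axis), with the 9 arrays on the x axis and 6 heparan sulfate genes in colour. EXTL2, HS2ST1 and HS6ST2 sit below 0 on Caco-2 replicate 1 and on replicates 3 of both T84 groups, whereas NDST1 and XYLT2 sit above 0 there.

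Of the heparan sulfate genes 2 changed after interferon gamma. HPSE, the heparanase that cuts the chain, rose 1.63-fold in treated T84, and XYLT1, a xylosyltransferase that places the first sugar of the linker, fell 1.58-fold. The other 30 genes did not pass the threshold. That is 1 gene higher and 1 lower among 32, or 6.25%, beside 10.2% of all probe sets called in this comparison (4.37% higher and 5.80% lower). The median log2 difference of the 32 genes was -0.05, beside -0.01 for all probe sets. The treated and untreated arrays did not overlap for 11 of the 32 genes (34.4%), beside 27.5% of all probe sets.

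**Figure D2:**
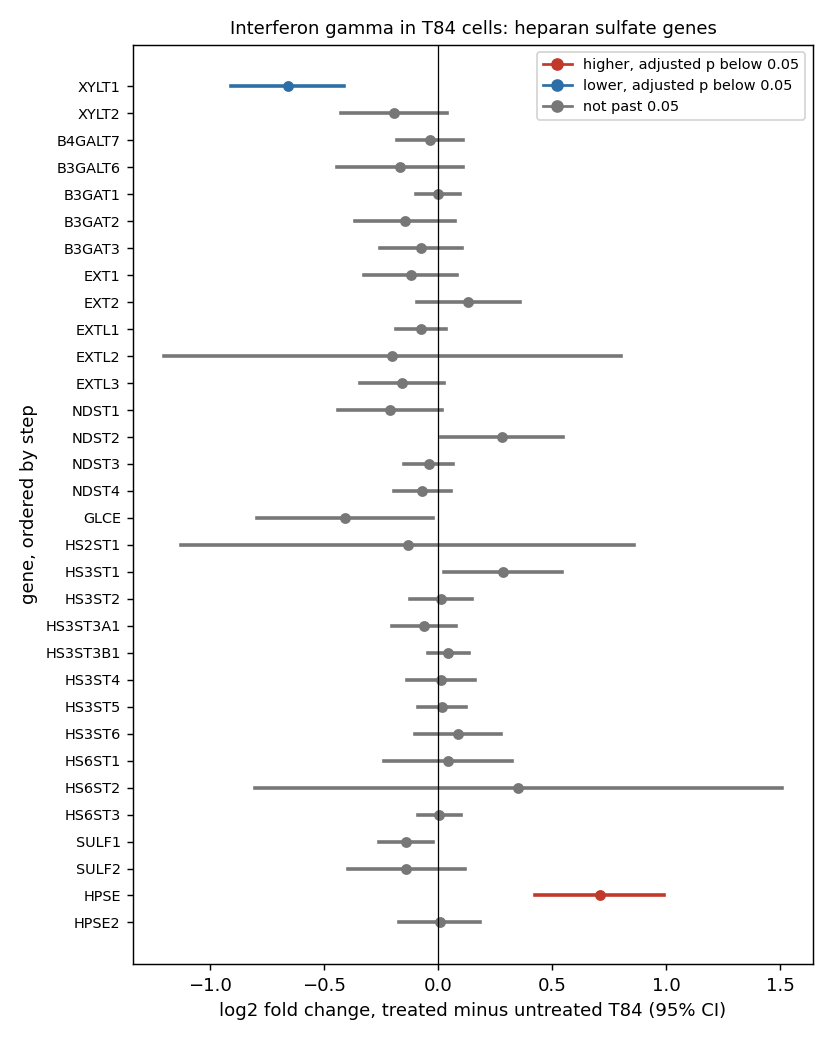
Points are the log2 fold change of each heparan sulfate gene in treated minus untreated T84 (x axis) with its 95% confidence interval from limma (lines), with the 32 genes on the y axis in the order of the steps. HPSE at 0.71 and XYLT1 at -0.66 are the genes past the threshold, and the widest intervals belong to EXTL2, HS2ST1 and HS6ST2.

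The log2 signal of HPSE was 7.87, 7.84 and 7.69 on the treated T84 arrays, 7.01, 7.12 and 7.15 on the untreated T84 arrays, and 6.47, 6.00 and 6.04 on the Caco-2 arrays. All treated arrays lay above all untreated T84 arrays, and these above all Caco-2 arrays. Interferon gamma raised HPSE by 0.71 ± 0.12 on the log2 scale (SE, n = 3 per group), which is 1.63-fold (1.34 to 1.99; limma adjusted p = 0.00745). Untreated T84 already exceeded Caco-2 by 0.92 (1.89-fold, 1.56 to 2.30; limma adjusted p = 0.000333). Treated T84 exceeded Caco-2 by 1.63 (3.09-fold, 2.54 to 3.76; limma adjusted p = 8.32e-06). Without the 3 deviating arrays the rise after interferon gamma was 0.80 (adjusted p = 0.000971). HPSE2, a related protein that lacks heparanase activity, averaged 5.89 ± 0.09 with and 5.89 ± 0.10 without interferon gamma in T84 and 6.08 ± 0.11 in Caco-2 (SD, n = 3), and passed in no comparison.

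XYLT1 gave log2 signals of 7.31, 7.18 and 7.09 on the treated T84 arrays, 7.69, 7.99 and 7.87 on the untreated T84 arrays, and 7.73, 7.49 and 7.40 on the Caco-2 arrays. The treated arrays lay below all others, while untreated T84 replicate 1 lay within the Caco-2 range. XYLT1 fell by 0.66 on the log2 scale with an SE of 0.11 (1.58-fold lower, 1.33 to 1.87; limma adjusted p = 0.00591). The probe set used for XYLT1 is of a kind that can cross-hybridise; the other probe set of the gene, of the gene-specific kind, fell by 0.63 with an SE of 0.13 (limma adjusted p = 0.0187). Against Caco-2 the gene was lower with interferon gamma, by 0.35 (limma adjusted p = 0.0285), and higher in untreated T84, by 0.31 (limma adjusted p = 0.0461). These smaller differences passed the threshold for the chosen probe set alone: the other one gave adjusted p-values of 0.0754 and 0.109. The treated call was lost without any one of treated replicates 2 and 3 and Caco-2 replicates 1 and 2, with adjusted p from 0.0506 to 0.0978. The untreated call was lost without any one of the 3 treated arrays, untreated replicates 2 and 3 and Caco-2 replicates 2 and 3, with adjusted p from 0.0527 to 0.152. The treated value against Caco-2 was -0.20 (adjusted p = 0.197) without the 3 deviating arrays, and 0.0950 when arrays were centred on ribosomal protein genes.

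The sequence before the gene start is shown for HPSE and XYLT1, the genes called after interferon gamma, and searched for the binding motifs of interferon-activated factors. The sequences come from RefSeq (GRCh38.p14), in which 29 of the 32 genes had an entry, and cover the 250 bases before the start, written 5′ to 3′ on the gene's own strand. HPSE has 3 starts in the table, and the most upstream one is shown; XYLT1 has 1. Capitals mark a GC box, GGGCGG on either strand. XYLT1 holds 1 and this HPSE window holds none, while the windows before HPSE starts 2 and 3 hold 2 each.
HPSE, minus strand, chr4:83335154-83335403: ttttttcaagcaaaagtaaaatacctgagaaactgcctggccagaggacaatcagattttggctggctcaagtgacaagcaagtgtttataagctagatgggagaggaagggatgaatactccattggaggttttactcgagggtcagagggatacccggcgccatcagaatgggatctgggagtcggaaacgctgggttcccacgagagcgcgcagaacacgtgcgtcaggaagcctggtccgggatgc
XYLT1, minus strand, chr16:17470961-17471210: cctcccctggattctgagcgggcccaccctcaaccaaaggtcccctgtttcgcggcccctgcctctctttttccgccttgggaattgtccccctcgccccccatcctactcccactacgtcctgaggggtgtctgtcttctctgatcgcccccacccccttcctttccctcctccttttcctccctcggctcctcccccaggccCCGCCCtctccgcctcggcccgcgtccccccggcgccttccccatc

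The interferon gamma activated site was searched as TTCNNNGAA and the interferon-stimulated response element as GAAANNGAA, on both strands, without regard to overlap between motifs. Among all 35116 windows, 6.57% held the first and 6.88% the second. None of the 3 HPSE windows nor the XYLT1 window holds either set of letters. The first was found before EXTL2, NDST2 and B3GAT3 and the second before B4GALT7, and none of these 4 genes passed the threshold in treated against untreated T84. The GC box was added to the search after the values were seen. It was held by 42.6% of all windows and by 29 of the 39 windows of the 29 genes. Those windows belong to 25 genes. The 4 matches are shown in capitals with 10 bases on either side, and a match is a string of letters, not a measured binding site.
EXTL2, activated site, chr1:100895011-100895039, minus strand: tcgggcgcctTTCAGGGAAgttgtttggc
NDST2, activated site, chr10:73811697-73811725, minus strand: gccgcttgatTTCCCGGAAcccaggtcgc
B3GAT3, activated site, chr11:62622175-62622203, minus strand: cacccggtggTTCCCGGAAcctggcggtg
B4GALT7, response element, chr5:177599933-177599961, plus strand: gcctctgggcTTCAGTTTCtcgggcttcc

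Among the genes that did not pass after interferon gamma, 9 had treated and untreated arrays that did not overlap. XYLT2 differed by -0.19, B3GALT6 by -0.17, EXT2 by 0.13 and EXTL3 by -0.16 on the log2 scale. NDST1 differed by -0.21 (limma adjusted p = 0.306), NDST2 by 0.28 (adjusted p = 0.235), HS3ST1 by 0.29 (adjusted p = 0.201), SULF1 by -0.14 (adjusted p = 0.169) and GLCE by -0.41 (adjusted p = 0.225). The count of lower genes depended on single arrays. Without Caco-2 replicate 1, which enters through the shared spread alone, XYLT2 and NDST1 passed as lower too (adjusted p = 0.0346 and 0.0195), and without untreated T84 replicate 1 SULF1 did (adjusted p = 0.0437). With the shared deviation as a covariate, NDST1 (limma adjusted p = 0.0308) and GLCE (adjusted p = 0.0246) passed as lower. That covariate is computed from these same values and narrows the spread without changing the differences, so these calls add no separate support. For EXTL2, HS2ST1 and HS6ST2 the 95% intervals were wide: EXTL2 differed by -0.20 (-1.20 to 0.80), HS2ST1 by -0.13 (-1.13 to 0.86) and HS6ST2 by 0.35 (-0.80 to 1.51) on the log2 scale. Without the 3 deviating arrays these were -0.20, -0.21 and 0.16, and none of them passed, while NDST1 differed by -0.23 (adjusted p = 0.0542), GLCE by -0.41 and XYLT2 by -0.18 (both 0.185).

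Both T84 groups had more EXT1, HS3ST1, HPSE and B4GALT7 and less XYLT2, NDST1, HS2ST1, HS6ST1 and SULF2 transcript than Caco-2. In untreated T84, 6 of the 32 genes were higher and 5 lower than in Caco-2 (34.4%), beside 43.7% of all probe sets called (19.5% higher and 24.2% lower). In treated T84, 6 were higher and 8 lower (43.8%), beside 45.6% of all probe sets (19.4% higher and 26.2% lower). Counted in both T84 groups in the same direction were 9 genes (28.1%), beside 38.2% of all probe sets; both comparisons share the Caco-2 arrays. The groups did not overlap for 14 of the 32 genes in untreated T84 (49.6% of all probe sets) and for 17 in treated T84 (53.5%). Median log2 differences were -0.01 and -0.03 for untreated and treated T84, beside 0.02 for all probe sets in each.

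How the arrays are put on one scale bears on these counts. When each array was centred on the mean of 41 ribosomal protein genes, the median of all probe sets moved to 0.31 for untreated and 0.46 for treated T84 against Caco-2. The heparan sulfate genes then counted 22 higher and 5 lower, and 23 higher and 5 lower, among 32. Of all 1259 probe sets, 843 were then higher and 190 lower in untreated T84, and 911 higher and 180 lower in treated T84. In treated against untreated T84 the median of all probe sets moved to 0.13 and the counts to 5 higher and 1 lower. Of all probe sets 231 were then higher and 50 lower. The 9 genes above kept their direction under this centring; XYLT1 and B3GAT2 in treated T84 against Caco-2 did not.

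**Figure D3:**
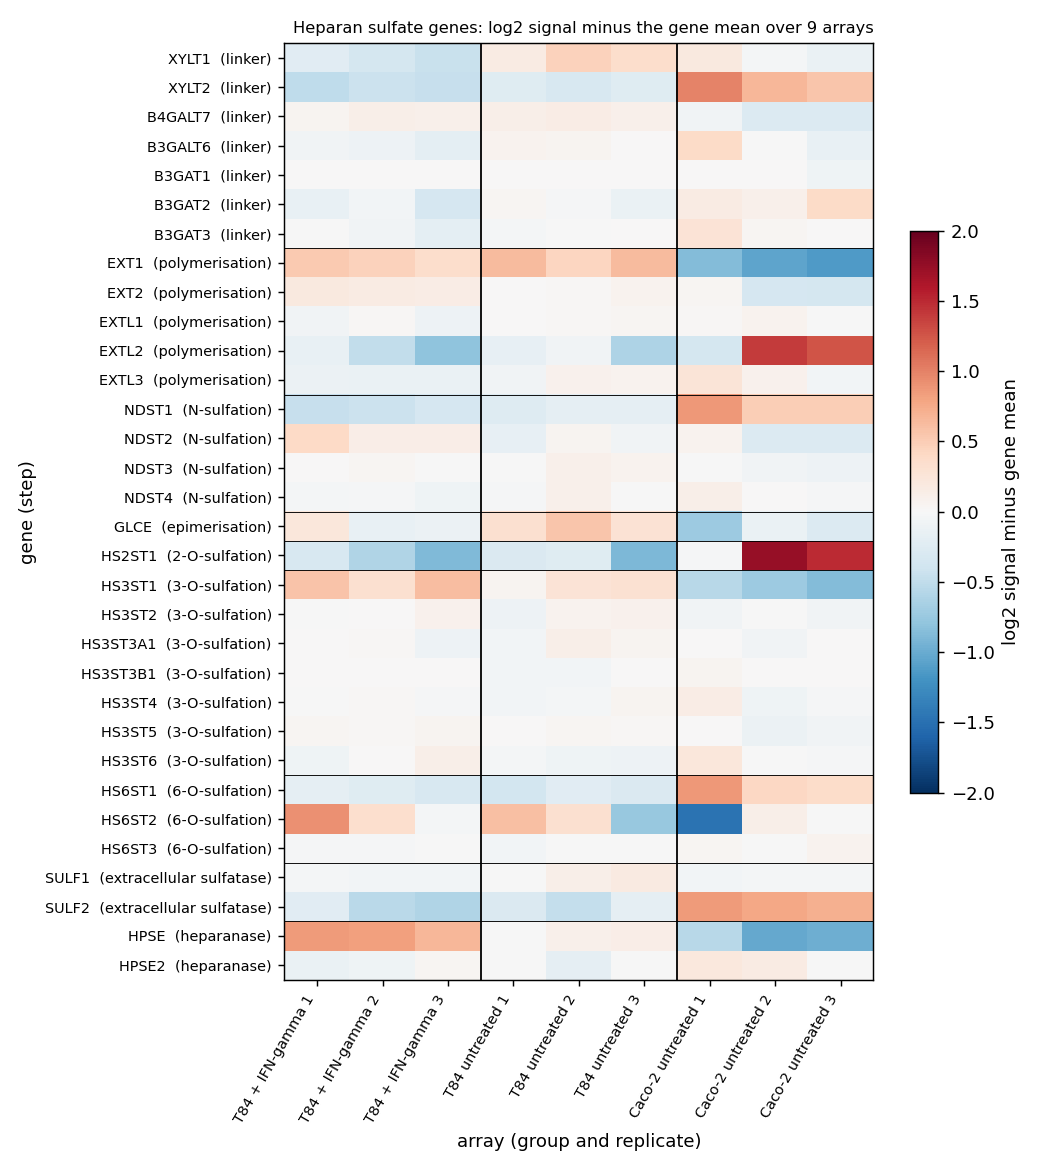
Colour shows the log2 signal of each heparan sulfate gene (rows, ordered by step) on each array (columns, by group and replicate) minus the gene's mean over the 9 arrays, with red above and blue below that mean. XYLT2, NDST1, HS6ST1 and SULF2 are red on all 3 Caco-2 arrays and blue on all 6 T84 arrays, EXT1, HS3ST1 and HPSE are blue on all 3 Caco-2 arrays, and 11 genes vary by less than 0.25 over all arrays.

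Of the 7 genes listed under the linker step, 2 were above and 1 below Caco-2 in untreated T84, beside 19.5% and 24.2% of all probe sets. The 2 above were B4GALT7 and XYLT1, and the other probe set of XYLT1 did not pass (limma adjusted p = 0.109). XYLT2, the second xylosyltransferase, gave 8.43, 8.51 and 8.49 on the treated T84 arrays, 8.69, 8.62 and 8.69 on the untreated T84 arrays, and 9.94, 9.61 and 9.50 on the Caco-2 arrays. Each T84 array lay below each Caco-2 array, by 1.02 on average in untreated T84 (-1.02 ± 0.10, SE, limma adjusted p = 5.28e-05) and by 1.21 in treated T84 (-1.21 ± 0.10, SE, limma adjusted p = 1.66e-05). In folds XYLT2 was 2.02-fold and 2.31-fold lower, and without the 3 deviating arrays its log2 differences were -0.90 and -1.08.

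B4GALT7, which adds the first galactose of the linker, gave 8.44, 8.51 and 8.49 on the treated T84 arrays, 8.51, 8.55 and 8.49 on the untreated T84 arrays, and 8.32, 8.11 and 8.11 on the Caco-2 arrays. The difference was small but exceeded the spread: it was 0.33 ± 0.06 in untreated (SE, limma adjusted p = 0.00248) and 0.30 ± 0.06 in treated T84 (SE, limma adjusted p = 0.00436). B3GAT3, the glucuronosyltransferase that completes the linker, lay between 7.70 and 8.16 over all arrays and did not pass in any comparison. B3GALT6, which adds the second galactose, lay between 8.40 and 8.97 and did not pass either. B3GAT2, a glucuronosyltransferase related to B3GAT3, differed by -0.40 between treated T84 and Caco-2 (limma adjusted p = 0.00862), a difference that reads 0.04 with ribosomal centring; untreated T84 differed by -0.25 (adjusted p = 0.0638). Its mean over the 9 arrays was below the lower quartile of probe-set means, 5.41. B3GAT1, of the same family, varied by 0.10 over all arrays.

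Among the 5 polymerisation genes EXT1 stood out. EXT1, a subunit of the chain-lengthening polymerase, gave 10.08, 10.02 and 9.90 on the treated T84 arrays, 10.19, 9.98 and 10.18 on the untreated T84 arrays, and 8.69, 8.50 and 8.42 on the Caco-2 arrays. The 6 T84 arrays lay more than 1 log2 unit above the 3 Caco-2 arrays. EXT1 was 2.98-fold (2.59 to 3.44; limma adjusted p = 1.58e-06) higher in untreated and 2.75-fold (2.39 to 3.16; limma adjusted p = 2.02e-06) higher in treated T84 than in Caco-2. EXT2, the partner subunit, gave 9.06, 9.02 and 9.003 on the treated T84 arrays, 8.87, 8.88 and 8.93 on the untreated T84 arrays, and 8.90, 8.52 and 8.51 on the Caco-2 arrays. Its difference from Caco-2 was 0.38 ± 0.10 in treated (SE, limma adjusted p = 0.0120) and 0.25 ± 0.10 in untreated T84 (SE, limma adjusted p = 0.0751), and in the second comparison Caco-2 replicate 1 lay within the T84 range. Without that array the untreated difference was 0.38 (adjusted p = 0.000160), and without the 3 deviating arrays 0.36 (adjusted p = 0.00165), both past the threshold. The arrays left out were picked by these same values, so these calls add no separate support.

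EXTL2, an enzyme that can end a growing chain, gave 7.21, 6.88 and 6.55 on the treated T84 arrays, 7.19, 7.30 and 6.75 on the untreated T84 arrays, and 7.01, 8.77 and 8.62 on the Caco-2 arrays. Caco-2 replicate 1 lay within the T84 range and the other Caco-2 arrays above it. Over all arrays the difference was -1.25 ± 0.43 in treated (SE, limma adjusted p = 0.0449) and -1.05 ± 0.43 in untreated T84 (SE, limma adjusted p = 0.0871). The treated call held without Caco-2 replicate 1 (adjusted p = 0.000207) and was lost without each of the other 8 arrays (adjusted p from 0.0582 to 0.144). Without the 3 deviating arrays the differences were -1.65 (adjusted p = 0.000121) and -1.45 (adjusted p = 0.000237). Those arrays were picked by a component that EXTL2 follows (correlation 0.96), so the smaller p-values add no separate support. EXTL3, which takes part in starting the chain, and EXTL1 did not pass in any comparison.

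Of the 4 N-sulfation genes, NDST1 in both T84 groups and NDST2 in treated T84 passed against Caco-2; they are the broadly expressed members of their family. NDST1 gave 7.84, 7.87 and 7.96 on the treated T84 arrays, 8.05, 8.12 and 8.12 on the untreated T84 arrays, and 9.16, 8.78 and 8.79 on the Caco-2 arrays. All T84 arrays were below all Caco-2 arrays, 1.76-fold lower on average in untreated (1.50 to 2.06; limma adjusted p = 0.000187) and 2.03-fold lower in treated T84 (1.74 to 2.38; limma adjusted p = 3.98e-05). Without the 3 deviating arrays the NDST1 differences were -0.70 and -0.93. NDST2 gave 8.40, 8.14 and 8.13 on the treated T84 arrays, 7.84, 8.06 and 7.93 on the untreated T84 arrays, and 8.08, 7.73 and 7.74 on the Caco-2 arrays. It was higher in treated T84 than in Caco-2 by 0.37 (limma adjusted p = 0.0282), a call lost without treated replicate 1 (adjusted p = 0.0952) or without Caco-2 replicate 2 (0.0933) or 3 (0.0942); untreated T84 differed by 0.10 (adjusted p = 0.566). NDST3 and NDST4 lay below the lower quartile of probe-set means and varied by 0.21 and 0.20 over the 9 arrays.

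GLCE, the epimerase, gave 7.69, 7.32 and 7.34 on the treated T84 arrays, 7.79, 8.03 and 7.75 on the untreated T84 arrays, and 6.73, 7.34 and 7.19 on the Caco-2 arrays. The untreated T84 arrays were the highest, and the treated ones overlapped with Caco-2. GLCE was higher in untreated T84 than in Caco-2 by 0.77 ± 0.17 (SE, 1.71-fold, limma adjusted p = 0.00532), while the treated difference of 0.36 ± 0.17 did not pass (SE, adjusted p = 0.115). Without the 3 deviating arrays they were 0.64 (adjusted p = 0.0132) and 0.24 (adjusted p = 0.232). Whether these differ is the comparison of treated with untreated T84, in which GLCE differed by -0.41 (adjusted p = 0.225).

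HS2ST1, the single 2-O-sulfotransferase, gave 5.65, 5.36 and 5.09 on the treated T84 arrays, 5.69, 5.73 and 5.08 on the untreated T84 arrays, and 5.95, 7.72 and 7.47 on the Caco-2 arrays. All T84 arrays lay below all Caco-2 arrays, though Caco-2 replicate 1 was close to them. The treated T84 mean of 5.37 lay below the lower quartile of probe-set means, 5.41. HS2ST1 was 2.92-fold lower in untreated (1.47 to 5.82; limma adjusted p = 0.0189) and 3.20-fold lower in treated T84 (1.61 to 6.38; limma adjusted p = 0.0120). Without the 3 deviating arrays the log2 differences were -1.89 (adjusted p = 7.83e-05) and -2.09 (adjusted p = 4.16e-05). Those arrays were picked by a component that HS2ST1 follows (correlation 0.98), so the smaller p-values add no separate support. The call in untreated T84 was lost without untreated T84 replicate 3 (adjusted p = 0.0679), without Caco-2 replicate 2 (0.0631) and without Caco-2 replicate 3 (0.0725).

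Of the 7 genes for 3-O-sulfation, the rarest modification, HS3ST1 was the one that differed. HS3ST1 gave 7.02, 6.77 and 7.06 on the treated T84 arrays, 6.51, 6.73 and 6.75 on the untreated T84 arrays, and 5.90, 5.72 and 5.58 on the Caco-2 arrays. The 3 groups did not overlap: treated T84 was highest and Caco-2 lowest. Treated and untreated T84 were barely apart (6.77 beside 6.75), and their difference of 0.29 did not pass (limma adjusted p = 0.201). It was higher than Caco-2 by 0.93 ± 0.11 in untreated (SE, 1.91-fold, limma adjusted p = 0.000176) and by 1.22 ± 0.11 in treated T84 (SE, 2.33-fold, limma adjusted p = 2.90e-05). HS3ST2, HS3ST3A1, HS3ST3B1, HS3ST4 and HS3ST5 each varied by less than 0.25 over the 9 arrays, and HS3ST6 by 0.33. HS3ST3B1 showed a single repeated value on 6 of the 9 arrays, as B3GAT1 did on 5. HS3ST3A1, HS3ST4 and HS3ST5 were among the 8 heparan sulfate genes below the lower quartile of probe-set means.

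Of the 3 genes for 6-O-sulfation, HS6ST1 gave 7.63, 7.57 and 7.50 on the treated T84 arrays, 7.46, 7.59 and 7.52 on the untreated T84 arrays, and 8.68, 8.24 and 8.19 on the Caco-2 arrays. Every T84 array was below every Caco-2 array, 1.80-fold lower in untreated (1.48 to 2.18; limma adjusted p = 0.000516) and 1.74-fold lower in treated T84 (1.44 to 2.12; limma adjusted p = 0.000654). HS6ST2 gave 9.48, 8.91 and 8.54 on the treated T84 arrays, 9.18, 8.89 and 7.81 on the untreated T84 arrays, and 7.10, 8.69 and 8.56 on the Caco-2 arrays. Its groups overlapped, and the differences from Caco-2 of 0.51 ± 0.50 and 0.86 ± 0.50 did not pass (SE, untreated and treated, limma adjusted p = 0.467 and 0.204). With the shared deviation as a covariate HS6ST2 passed as higher than Caco-2 in both (limma adjusted p = 0.00539 and 0.000220). The covariate is computed from these same values, and HS6ST2 follows it (correlation 0.98). It narrows the spread without changing the differences, so these calls add no separate support. Without Caco-2 replicate 1 the HS6ST2 differences were -0.0007 and 0.35, and without the 3 deviating arrays 0.41 (adjusted p = 0.156) and 0.57 (adjusted p = 0.0618). HS6ST3 was below the lower quartile of probe-set means and varied by 0.13.

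The extracellular sulfatases take 6-O-sulfate off finished chains. SULF2 gave 7.91, 7.60 and 7.54 on the treated T84 arrays, 7.85, 7.66 and 7.96 on the untreated T84 arrays, and 8.99, 8.91 and 8.85 on the Caco-2 arrays. The T84 arrays were all below the Caco-2 arrays, 2.13-fold lower in untreated (1.79 to 2.55; limma adjusted p = 6.20e-05) and 2.35-fold lower in treated T84 (1.96 to 2.803; limma adjusted p = 2.56e-05). SULF1 was below that quartile, and its log2 signal varied by 0.23. HS6ST1 and SULF2, which add and remove the same sulfate, were thus both lower in T84 than in Caco-2.

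**Figure D4:**
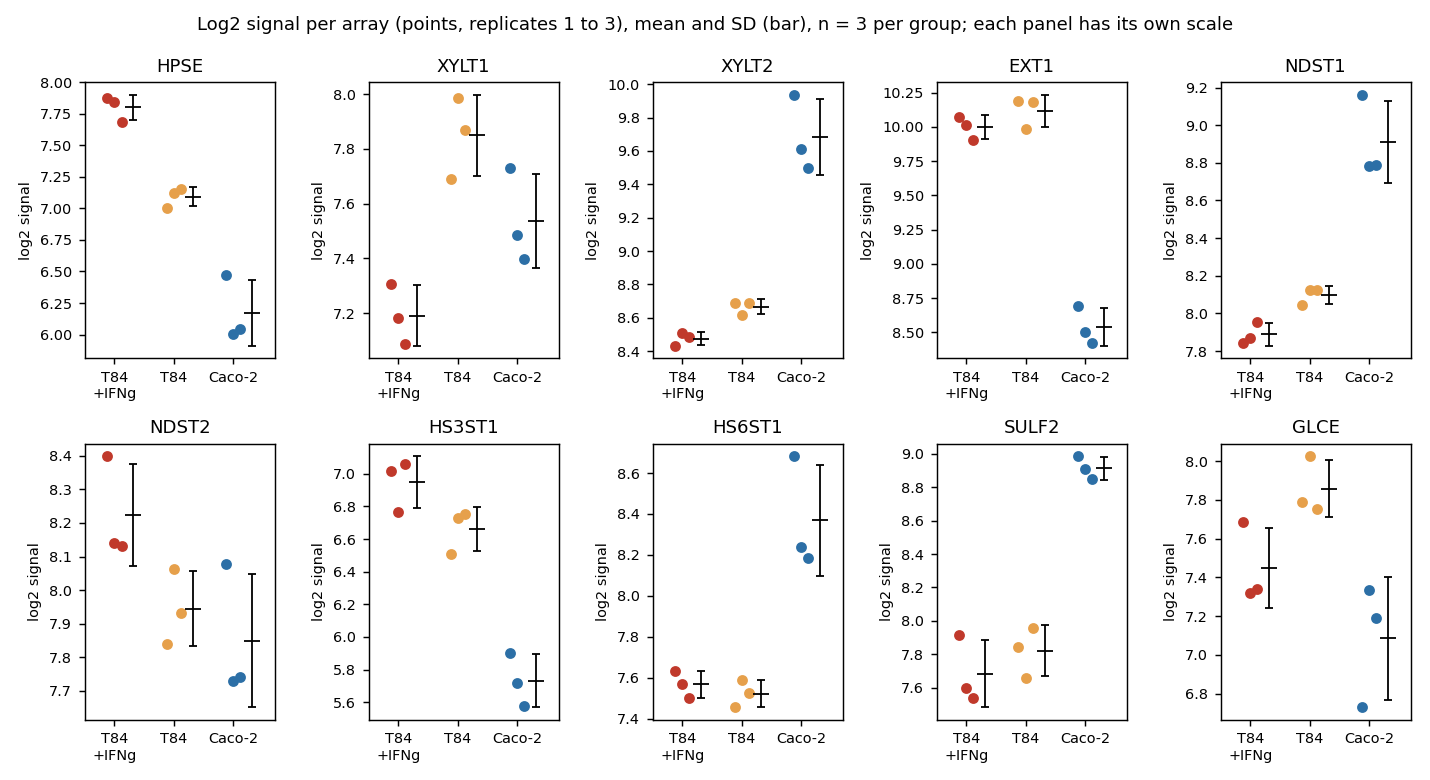
Log2 signal (y axis, a separate scale in each panel) of 10 heparan sulfate genes in treated T84, untreated T84 and Caco-2 (x axis); points are arrays, and bars are the mean and SD of 3. HPSE is highest in treated T84, XYLT1 is lowest there, EXT1 and HS3ST1 are higher in both T84 groups than in Caco-2, and XYLT2, NDST1, HS6ST1 and SULF2 are lower.

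Passing in neither interferon gamma nor Caco-2 comparisons were 17 of the 32 genes (53.1%), beside 48.9% of all probe sets. The range over the 9 arrays was under 0.25 for 11 of the 32 genes (34.4%) and for 24.5% of all probe sets. Of these 11, NDST3, NDST4, HS3ST3A1, HS3ST4, HS3ST5, HS6ST3 and SULF1 lay below the lower quartile of probe-set means. A small range there need not mean steady expression. Of the calls above, those of HPSE and XYLT1 in treated against untreated T84 held in every alternative run, with adjusted p-values from 0.000138 to 0.0359 and from 0.000364 to 0.0300. Against Caco-2, 8 of the 14 calls in treated T84 and 9 of the 11 in untreated T84 held in every alternative; XYLT2, B4GALT7, EXT1, NDST1, HS3ST1, HS6ST1, SULF2 and HPSE held in both, and GLCE in untreated T84.

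**Figure D5:**
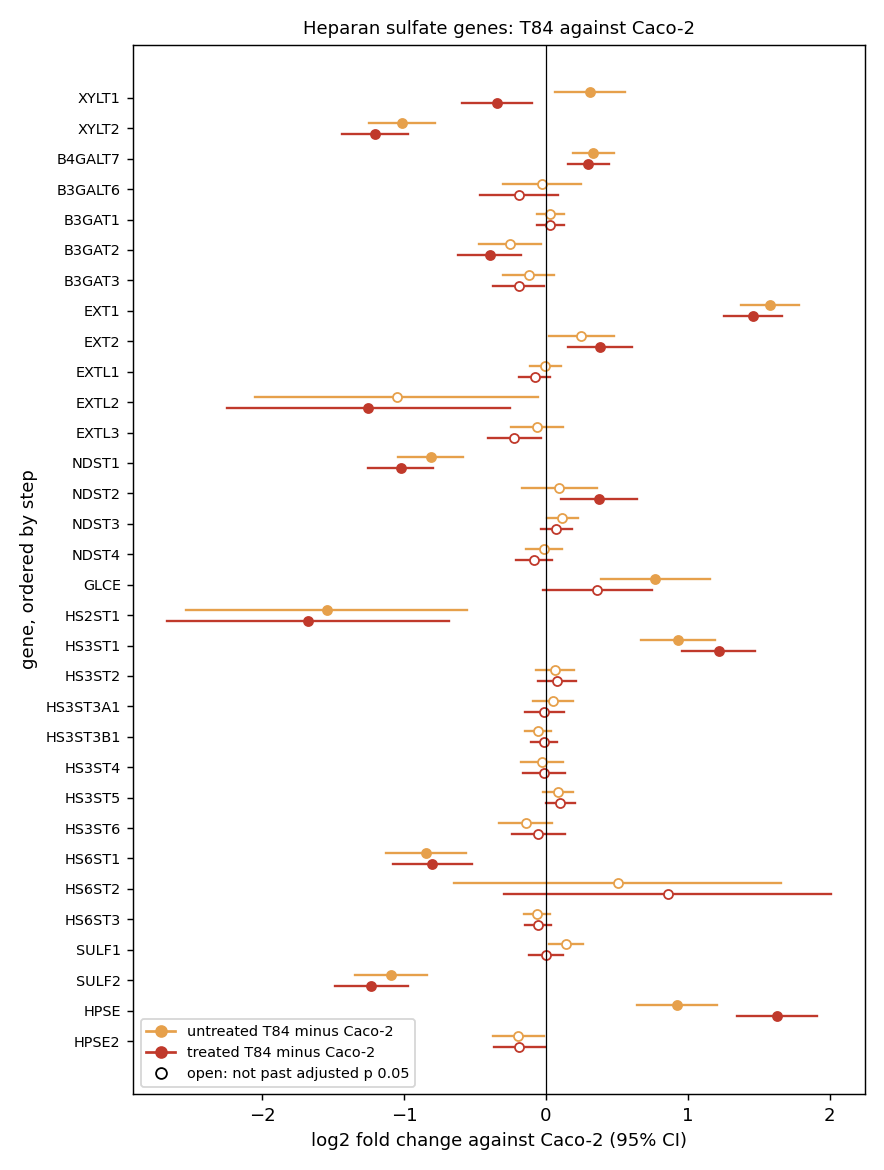
Points are log2 fold changes of each heparan sulfate gene against Caco-2 (x axis), for untreated T84 (orange) and treated T84 (red), with 95% confidence intervals from limma and the genes on the y axis by step; open points did not pass the threshold. EXT1 lies at 1.58 and 1.46 and HS2ST1 at -1.55 and -1.68, and XYLT1 lies on opposite sides of 0 (its treated value turns to 0.0950 with ribosomal centring, and that of B3GAT2 from -0.40 to 0.04).

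The chains need a core protein to grow on, and 11 of 13 core proteins listed were measured. After interferon gamma 2 of the 11 were lower, beside 5.80% of all probe sets. SDC1, syndecan-1, the main epithelial heparan sulfate proteoglycan, fell by 0.52 on the log2 scale (limma adjusted p = 0.0187), and HSPG2, perlecan of the basement membrane, fell by 0.40 (adjusted p = 0.0232). Both calls were lost without single arrays: that of SDC1 without treated replicates 1 or 2 or untreated replicates 2 or 3 (adjusted p from 0.0610 to 0.0782), and that of HSPG2 without treated replicates 2 or 3 or any untreated replicate (0.0759 to 0.0977). The probe set of HSPG2 is of the kind that can cross-hybridise. Against Caco-2, 2 core proteins were higher and 6 lower in untreated T84, beside 19.5% and 24.2% of all probe sets. GPC3, a glypican of the cell surface, was 31.2-fold lower (27.4 to 35.5; limma adjusted p = 6.07e-10) and GPC4, another glypican, was higher (limma adjusted p = 1.06e-08). GPC4 averaged 8.53 in untreated T84 and 4.78 in Caco-2, the latter below the lower quartile of probe-set means, so no fold is given.

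Sulfation draws on the donor PAPS, made by PAPSS1 and PAPSS2, and chain growth on UDP-sugars. Of 11 such supply and linker genes 8 were measured, and after interferon gamma 2 were lower (5.80% of all probe sets). PAPSS2 fell by 1.04 (2.06-fold lower, 1.71 to 2.47; limma adjusted p = 0.000704), a call that held without any one of the 9 arrays. PAPSS1 fell by 0.23 (limma adjusted p = 0.0453), a call that held without Caco-2 replicate 1 and was lost without each of the other 8 arrays (adjusted p from 0.0570 to 0.169). Against Caco-2, untreated T84 had 1 of them higher and 2 lower (19.5% and 24.2% of all probe sets). The 2 PAPS synthases went opposite ways: PAPSS2 was higher by 1.74 (limma adjusted p = 4.71e-06), and PAPSS1 differed by -0.94 (limma adjusted p = 2.98e-06). SLC35D2, a carrier of UDP-sugars into the Golgi, differed by -0.96 (limma adjusted p = 4.71e-06).

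Of 8 lysosomal enzymes that break the chains down 6 were measured, and none passed after interferon gamma in limma, with IDS and GUSB under 0.05 before adjustment. Against Caco-2, untreated T84 had 3 of them higher and 1 lower (19.5% and 24.2% of all probe sets); IDS, which removes 2-O-sulfate from iduronic acid, was higher by 1.96 (3.88-fold, limma adjusted p = 1.02e-07) and IDUA, which then removes the iduronic acid, by 0.81 (1.75-fold, limma adjusted p = 8.29e-05). All 6 listed genes of the chondroitin branch, which uses the same linker, were measured. CHSY1, a chondroitin synthase, was higher after interferon gamma by 0.48 (limma adjusted p = 0.0232), a call lost without treated replicate 1 (adjusted p = 0.0511), untreated replicate 1 (0.0878) or untreated replicate 3 (0.0722). CHSY1 was also the 1 gene of this branch higher in untreated T84 than in Caco-2, by 0.71 (limma adjusted p = 0.000708). Of all probe sets, 4.37% were higher after interferon gamma and 19.5% were higher in untreated T84 than in Caco-2.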

How the data were processed

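RNA of T84 and Caco-2 cells (3 arrays per group) was labelled with biotin. The authors deposited log2 signals summarised by RMA, per the submitters' processing notes; no source used here gives its version, any filter or the genome build, so no probe-set positions are printed. Values were used as deposited. Probe sets were named through their RefSeq identifiers (1043 of 1259 received 1 symbol). limma 3.58.1 (R 4.3.3) fitted group means over the 9 arrays together, with moderated variances (6 residual, 2.12 prior degrees of freedom). The fit was run on simulated data with independent noise on each array. Those data lack the shared deviation seen here, so error rates under that deviation were not tested. The number of arrays limits the precision. All listed genes were named; of the related lists, genes past 0.05 after interferon gamma and at most 2 largest differences from Caco-2 were. The genes and lists were chosen with earlier results of these data known. Alternatives were scaling, arrays in the fit, block, moderation, weights, filter, threshold, choice of probe set and single arrays left out. Leaving out 3 arrays together and a covariate were added after seeing the data. The covariate is the first component of the deviations of these same values from their group means. The 3 arrays were picked by their scores on it. Promoters were searched with Python 3.11.15.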

Additional observations from a re-analysis of the deposited data

How the results depend on the processing

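Of 2091 single-gene values under alternatives, 1954 stayed on their side of the threshold, 45 lost the call and 72 gained it. A further 20 turned sign and passed the threshold either before or after; these came from centring on ribosomal protein genes. Of the 1954, 76 turned sign without passing before or after, 15 of them under that centring. It gave 5 genes higher after interferon gamma, 23 higher and 5 lower in treated T84 and 22 higher in untreated T84 against Caco-2. Beside these stood 231 higher, 911 higher and 180 lower, and 843 higher of all 1259 probe sets, and the median of all probe sets moved with them. The 20 turned log2 differences from Caco-2 were, in treated T84, XYLT1 0.0950, B3GAT2 0.0443, B3GAT3 0.249, EXTL1 0.362, EXTL3 0.220, NDST4 0.360, HS3ST3A1 0.430, HS3ST3B1 0.429, HS3ST4 0.429, HS3ST6 0.387, HS6ST3 0.386 and HPSE2 0.255. In untreated T84 they were B3GALT6 0.271, B3GAT3 0.177, EXTL1 0.293, EXTL3 0.232, NDST4 0.283, HS3ST3B1 0.240, HS3ST4 0.270 and HS6ST3 0.236. Genes lower after interferon gamma numbered 3 with the 6 arrays compared, 3 with array weights and 3 with the shared deviation as a covariate. Beside these, 101, 144 and 119 of all 1259 probe sets were lower. Without single arrays the genes lower ranged from 1 to 3, beside 40 to 108 of all probe sets. Array weights gave 10 higher and the covariate 8 lower genes in untreated T84 against Caco-2, and a threshold of 0.01 gave 5 lower in treated T84. The counts of all probe sets beside these were 320 higher, 342 lower and 274 lower. Apart from the threshold, the cause was not tested. With the replicate number as a block, the counts were 1 higher and 1 lower, 6 and 6, and 5 and 5. Of all probe sets they were 50 and 59, 225 and 309, and 215 and 284. The block ended the limma calls of XYLT1 (adjusted p = 0.0509 and 0.0757) and EXTL2 (0.0722) against Caco-2. Same-numbered arrays did not deviate together in every pair (correlations from -0.643 to 0.561), so the numbers are not taken as pairs; replicates 3 of both T84 groups gave the 0.561. Small changes may not be detectable with 3 arrays per group, nor in the 8 genes below the lower quartile of probe-set means.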
